A study of Arabidopsis thaliana with 12 samples.

Results

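The 9 genes described here encode large molecular chaperones and heat stress factors of Arabidopsis thaliana, and were taken by gene identifier from the 32833 genes of the deposited table. They were the transcription factor genes HSFA2 (AT2G26150) and HSFA7A (AT3G51910), the disaggregase genes HSP101 (AT1G74310), CLPB3 (AT5G15450) and CLPB4 (AT2G25140), the chaperone genes HSP70 (AT3G12580) and HSP90.1 (AT5G52640), the immunophilin gene ROF2 (AT5G48570), and the endoplasmic reticulum chaperone gene BIP3 (AT1G09080). RNA of whole seedlings aged 8 days was sequenced in 12 libraries, 3 for each of 4 groups: phod2 P-, phod2 P+, KC P- and KC P+. The labels give phod2 and KC as genotypes and spell out neither, nor do they say which gene is altered in phod2. The series title concerns phosphate and the plastid lipoyl synthase gene LIP1P, so P- and P+ were read as low and high phosphate, and no concentration, light regime or harvest time is given. The KC P+ columns of the deposited table are headed WT while the labels call these samples KC, so if WT and KC differ, every comparison with KC P+ includes that difference. The design text states biological replicates for each genotype.

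Heat stress transcription factors (HSFs) bind heat shock elements, inverted repeats of GAA and TTC, and switch on chaperone genes when proteins unfold. HSP70 and HSP90 hold and fold client proteins with the help of co-chaperones, and the ClpB-type ATPases pull polypeptides out of aggregates in the cytosol (HSP101), the plastid (CLPB3) and the mitochondrion (CLPB4). In Arabidopsis HSFA2 is known as the factor that prolongs acquired thermotolerance, ROF2 is known as an HSP90-binding partner that modulates HSFA2, and BIP3 is the stress-inducible form of the lumenal chaperone BiP.

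The 9 genes lie on 4 chromosomes, with positions given on TAIR10.1. HSFA2 lies at chr2:11135624-11137792 on the plus strand, HSFA7A at chr3:19265141-19266806 on the plus strand, and HSP90.1 at chr5:21352557-21355147 on the plus strand. On the minus strand are HSP101 at chr1:27936508-27940369, CLPB3 at chr5:5014212-5018347, CLPB4 at chr2:10697629-10702203, HSP70 at chr3:3991117-3993886, ROF2 at chr5:19690461-19693845 and BIP3 at chr1:2929217-2931850. The genes are built differently: RefSeq gives HSFA7A and HSP70 2 exons each, and ROF2 13 exons. HSP101 overlaps AT1G74300 on the opposite strand by 101 bases, and CLPB3 overlaps AT5G15440 on the opposite strand by 70 bases, and reads there cannot be assigned because the use of strand in counting is not given in the sources used here. No 50-base stretch of the exons of 8 members occurred elsewhere in the genome, and 6 of 3235 did for HSP101.

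The 300 bases before the annotated start of each gene were searched on both strands for heat shock elements, and 4 of the 9 windows held one in some form. A 3-unit element, in which 3 units of GAA and TTC alternate with 2 bases between them, was found before HSFA2 at bases 88 to 76, before HSFA7A at bases 192 to 180 and 142 to 130, and before HSP90.1 at bases 295 to 283. That is 3 of 9 windows, against 133 of 27443 protein-coding genes (0.485%). The annotated starts were not checked against transcription starts, so all positions are relative to the annotation only. The HSP90.1 window ends in atggcggatgttcag, which begins with an ATG, so its annotated start may lie within coding sequence. The shorter GAANNTTC occurred in 3 of 9 windows (11.5% of all) and TTCNNGAA in 4 of 9 (9.38% of all), and these overlap the 3-unit elements except for a second GAANNTTC before HSFA2 at bases 33 to 26 and TTCNNGAA before CLPB3 at bases 273 to 266 and 134 to 127. The windows of the 2 transcription factors and of the plastid disaggregase are shown because HSFA2 and CLPB3 on the one hand and HSFA7A on the other moved in opposite directions. Capitals mark the matches, each window is read 5′ to 3′ on the strand of the gene, and its last base lies next to the start. The HSFA2 window is chr2:11135324-11135623 (plus strand), the HSFA7A window chr3:19264841-19265140 (plus strand) and the CLPB3 window chr5:5018348-5018647 (minus strand), all from the RefSeq TAIR10.1 genome.
HSFA2: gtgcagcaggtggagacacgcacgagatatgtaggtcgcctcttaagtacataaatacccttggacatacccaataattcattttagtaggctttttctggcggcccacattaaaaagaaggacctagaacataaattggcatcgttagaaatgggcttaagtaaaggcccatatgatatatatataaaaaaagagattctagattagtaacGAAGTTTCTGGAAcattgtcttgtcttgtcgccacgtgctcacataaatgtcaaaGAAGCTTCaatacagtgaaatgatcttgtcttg
HSFA7A: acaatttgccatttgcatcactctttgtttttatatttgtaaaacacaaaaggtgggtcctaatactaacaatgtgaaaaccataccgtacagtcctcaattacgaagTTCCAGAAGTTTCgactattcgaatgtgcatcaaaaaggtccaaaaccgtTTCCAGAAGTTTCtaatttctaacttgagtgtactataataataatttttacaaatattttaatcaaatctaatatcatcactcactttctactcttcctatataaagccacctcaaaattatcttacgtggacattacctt
CLPB3: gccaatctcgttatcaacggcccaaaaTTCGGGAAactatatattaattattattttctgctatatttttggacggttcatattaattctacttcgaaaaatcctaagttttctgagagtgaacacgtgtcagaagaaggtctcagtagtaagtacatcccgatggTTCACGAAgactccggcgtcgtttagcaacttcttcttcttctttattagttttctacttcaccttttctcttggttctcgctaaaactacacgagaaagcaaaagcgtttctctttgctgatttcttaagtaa
The single element of HSP90.1 reads GAACTTTCTGGAA. The windows of HSP101, CLPB4, HSP70, ROF2 and BIP3 held none of these letters. The window of BIP3, like the other 8, held neither the endoplasmic reticulum stress element I (CCAAT and CCACG separated by 9 bases, 0.332% of all windows) nor element II (ATTGG and CCACG separated by 1 base, 0.0656%), nor TGACGTGG (1.33%) or TGACGTGA (0.652%). The phosphate-related GNATATNC (6.5% of all) and the evening element AAAATATCT (2.78%) were also not in any of the 9 windows.

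**Figure D1:**
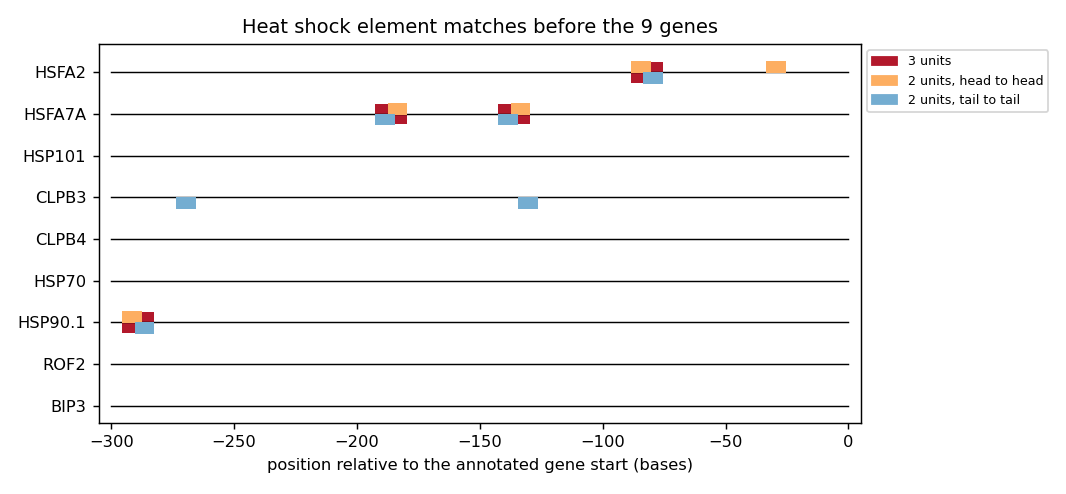
Positions of heat shock element matches in the 300 bases before the annotated start (horizontal axis, bases relative to the start) of the 9 genes, 1 line a gene, with 3-unit and both 2-unit forms as coloured blocks. The 3-unit blocks lie before HSFA2, HSFA7A (2 blocks) and HSP90.1, and 5 lines carry no block.

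Total counts were 16821084 to 23327960 per library, and 20891 genes passed the low-count filter, the 9 members among them. The library phod2 P- replicate 2 stood apart: its difference from the other 2 libraries of its group ran with gene length (Spearman correlation across genes -0.694), with a median log2 difference of 0.46 in the shortest decile of genes and -0.66 in the longest. All 9 members were lower in it than in replicates 1 and 3, with log2 differences of -0.12 (HSP70) to -1.08 (BIP3). The condition moved together with clock genes: the summed level of 4 morning genes was 360 to 415 CPM in phod2 P- and 1.14 to 2.1 CPM in phod2 P+, and 358 to 382 CPM in KC P- and 1.35 to 2.38 CPM in KC P+. Of 4 evening genes the sum was 39.6 to 41.2 CPM in phod2 P- and 414 to 419 CPM in phod2 P+, and 45.3 to 48.9 CPM in KC P- and 413 to 430 CPM in KC P+. All 4 morning genes were called higher and all 4 evening genes lower in P- in both genotypes, with CCA1 at 144 CPM in phod2 P- and 0.222 in phod2 P+. COR27, an evening-phased gene, was at 0.164 CPM in phod2 P- and 121 in phod2 P+, and at 0.222 in KC P- and 115 in KC P+. Of 3 shoot markers 2, LHCB1.1 and LHCB2.1, were called higher in P- in both genotypes, and RBCS1A was not. LHCB1.1 averaged 4660 CPM in phod2 P- and 269 in phod2 P+, and 4930 in KC P- and 364 in KC P+. RBCS1A averaged 20200 CPM in phod2 P- and 15500 in phod2 P+, and 18300 in KC P- and 15200 in KC P+. The sum of the 3, in which RBCS1A weighs most, was 24040 to 32900 CPM in phod2 P- and 15882 to 16094 CPM in phod2 P+. In KC it was 25100 to 25540 CPM in P- and 15612 to 15822 CPM in P+. The part of clock phase and of shoot share in the results was not tested. Seedlings are a mixture of organs, so fewer cells of a type and less RNA per cell cannot be told apart either. The genotype moved together with root markers, whose 4 genes summed to 1742 to 1821 CPM in phod2 P- against 2708 to 2730 CPM in KC P-, and to 1627 to 1647 CPM in phod2 P+ against 3946 to 3990 CPM in KC P+. Of the 4 root markers 2 were called lower in phod2 than in KC in P- and 4 in P+. Seed storage genes summed to 35.2 to 39.3 CPM in phod2 P- against 0.584 to 0.775 CPM in KC P-, with SESA1 and SESA3 at 0 counts in both, and their part in the results was not tested. The title gene LIP1P averaged 13.8 CPM in phod2 P- and 24.6 CPM in KC P-.

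**Figure D2:**
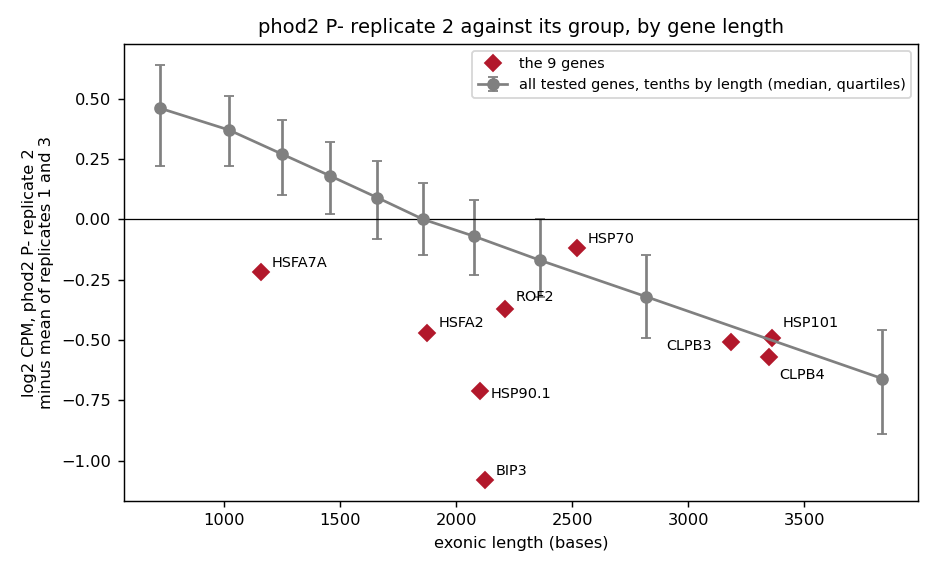
Log2 difference of phod2 P- replicate 2 from the mean of replicates 1 and 3 (vertical axis) against exonic length in bases (horizontal axis); grey points are medians of length deciles of the tested genes with quartile bars, red diamonds the 9 members. All 9 diamonds lie below 0, and HSP101, CLPB3 and CLPB4 lie near the grey line, while BIP3 at -1.08, HSP90.1 at -0.71, HSFA2 at -0.47, ROF2 at -0.37 and HSFA7A at -0.22 lie below it and below the quartile bars of the nearest decile.

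Both heat stress factor genes changed with phosphate condition, in opposite directions. HSFA2 rose in P- and HSFA7A fell in P-. HSFA2 was measured at 8.47, 6.24 and 8.97 normalized CPM (counts scaled to library size with TMM factors) in phod2 P- and at 1.20, 1.12 and 1.21 in phod2 P+. In KC it stood at 4.24, 3.99 and 3.11 CPM in P- and at 0.765, 0.709 and 0.436 in P+. No library of P- overlapped one of P+ in either genotype. The log2 change of HSFA2 in P- against P+ was 2.75 (SE 0.198) in phod2 (quasi-likelihood test of edgeR, Benjamini-Hochberg adjusted p = 2.01e-08) and 2.57 (SE 0.244) in KC (edgeR, adjusted p = 4.53e-07). HSFA7A, a member of the same class of factors, was at 2.27, 2.12 and 2.75 CPM in phod2 P- and at 11.2, 10.8 and 10.6 in phod2 P+. In KC it was at 1.86, 2.99 and 1.86 CPM in P- and at 20.6, 20.4 and 19.1 in P+. All P- libraries lay below all P+ libraries in both genotypes. HSFA7A fell by 2.19 (SE 0.145) on the log2 scale in phod2 (edgeR, adjusted p = 8.15e-09) and fell by 3.16 (SE 0.14) in KC (edgeR, adjusted p = 1.14e-10).

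The genotypes differed in HSFA2 within P-. HSFA2 was higher in phod2 than in KC by a log2 change of 1.06 (SE 0.168) in P- (edgeR, adjusted p = 0.000398), with every phod2 P- library above every KC P- library. In P+ it was 0.89 (SE 0.295, edgeR adjusted p = 0.0373), below the 2-fold limit. HSFA7A was at a log2 difference of 0.09 in P- (edgeR, adjusted p = 0.769, 95% interval -0.35 to 0.52) with overlapping libraries. In P+ the phod2 libraries lay below the KC libraries, with a log2 difference of -0.88 (SE 0.109, edgeR adjusted p = 2.95e-05), short of 2-fold. Without KC P+ replicate 1 the HSFA2 value in P+ was 1.06 and called, and in P- it was 0.94 without KC P- replicate 3 and 0.97 without phod2 P- replicate 3, no longer called. The change of HSFA7A with phosphate differed between the genotypes by 0.97 on the log2 scale (SE 0.218, edgeR adjusted p = 0.00976), less than the 2-fold limit, and was called without KC P- replicate 2 (1.24), KC P+ replicate 3 (1.01), phod2 P- replicate 1 (1.01) or phod2 P- replicate 2 (1.07). That of HSFA2 differed by 0.18 (edgeR, adjusted p = 0.797, 95% interval -0.65 to 1).

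**Figure D3:**
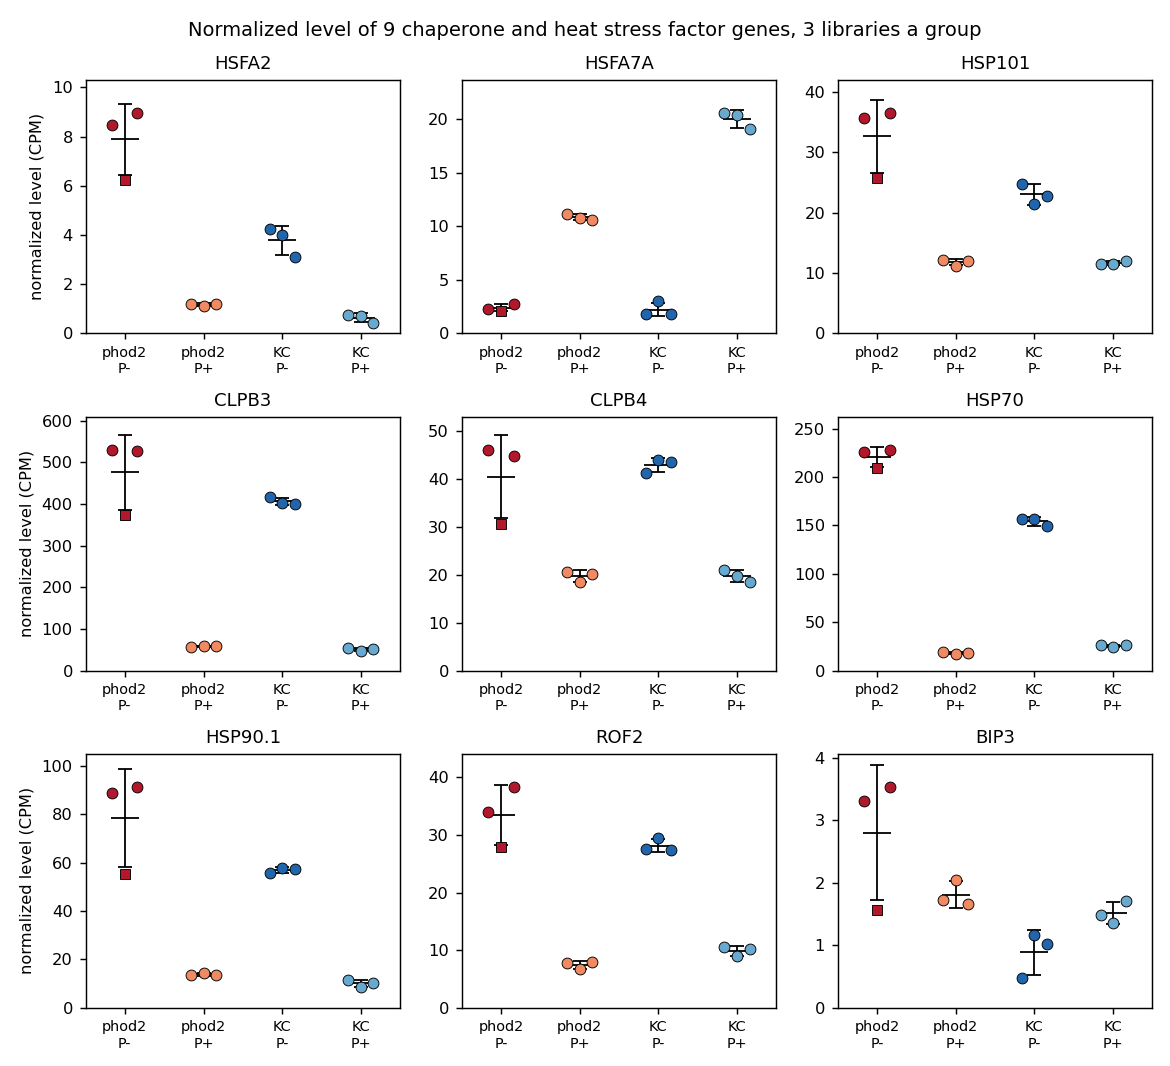
Normalized level in CPM (vertical axis, linear and starting at 0 in each panel) of the 9 genes in every library of the 4 groups (horizontal axis); circles are libraries, the square is phod2 P- replicate 2, lines show mean and SD over 3 libraries. In 7 panels every P- point lies above the P+ points of its genotype, HSFA7A shows the reverse, and in the BIP3 panel phod2 P- and phod2 P+ overlap.

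The 3 disaggregase genes rose in P- in both genotypes, by different amounts, with HSP101 in KC just under the 2-fold limit. CLPB3 was at 530, 373 and 528 CPM in phod2 P- and at 57.2, 60 and 58.6 in phod2 P+. KC seedlings had 416, 402 and 401 CPM in P- and 54.0, 47.9 and 51.8 in P+. CLPB3 rose 8.13-fold in phod2 (log2 3.02, SE 0.114, edgeR adjusted p = 1.55e-11) and 7.93-fold in KC (log2 2.99, SE 0.114, edgeR adjusted p = 2.17e-11), and the lowest P- library stood far above the highest P+ library. HSP101 was at 35.7, 25.7 and 36.5 CPM in phod2 P- and at 12.1, 11.2 and 12 in phod2 P+. The KC libraries read 24.8, 21.4 and 22.8 CPM in P- and 11.5, 11.5 and 12 in P+. The libraries of P- and P+ did not overlap for HSP101. The change was 1.47 (SE 0.116) in phod2 (edgeR, adjusted p = 5.23e-08). In KC it was 0.98 (SE 0.118, edgeR adjusted p = 5.74e-06), just under 2-fold, and past it at 1.1 once the length trend was removed and at 1.02 without KC P- replicate 2. CLPB4 was at 46.0, 30.6 and 44.8 CPM in phod2 P- and at 20.6, 18.4 and 20.2 in phod2 P+. KC libraries were at 41.2, 44.0 and 43.5 CPM in P- and at 21.0, 19.7 and 18.5 in P+. Again no libraries overlapped between P- and P+. The log2 change was 1.04 (SE 0.123, edgeR adjusted p = 4.09e-06) in phod2 and 1.12 (SE 0.123, edgeR adjusted p = 2.14e-06) in KC. The phod2 change fell under 2-fold without phod2 P- replicate 1 (0.94) or replicate 3 (0.96) or phod2 P+ replicate 2 (0.99). With limma it was 0.85 on log2(FPKM + 1) and 0.94 on log2(FPKM + 0.1), and the KC change was 0.98 on log2(FPKM + 1), also under 2-fold.

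None of the 3 disaggregase genes was called between the genotypes. In P- the log2 difference of HSP101 was 0.51 (SE 0.111, edgeR adjusted p = 0.00436), under the 2-fold limit. In P- CLPB3 stood at 0.23 (edgeR, adjusted p = 0.131, 95% interval -0.01 to 0.47) and CLPB4 at -0.08 (edgeR, adjusted p = 0.667, 95% interval -0.35 to 0.19). In P+ HSP101 was at 0.01 (edgeR, adjusted p = 0.964, 95% interval -0.27 to 0.3), CLPB3 at 0.19 (edgeR, adjusted p = 0.215) and CLPB4 at 0.00 (edgeR, adjusted p = 0.999, 95% interval -0.29 to 0.29). Per length CLPB3 was the most abundant of the 9 in P-, at 147 ± 33.2 FPKM in phod2 P- and 127 ± 2.5 FPKM in KC P- (SD, n = 3 each).

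HSP70 changed most strongly of the 9 in phod2, and its change differed between the genotypes. It was at 226, 209 and 228 CPM in phod2 P- and at 19.1, 17.4 and 18.1 in phod2 P+. In KC it was at 157, 157 and 149 CPM in P- and at 26.7, 24.1 and 26.0 in P+. All P- libraries lay above all P+ libraries, and phod2 lay above KC in P- and below it in P+. HSP70 rose 12.2-fold in phod2 (log2 3.6, SE 0.0709, edgeR adjusted p = 2.72e-14) and 6.02-fold in KC (log2 2.59, SE 0.0677, edgeR adjusted p = 4.03e-13). The difference of these changes was 1.01 (SE 0.093, edgeR adjusted p = 9.28e-06), and it lay just at the 2-fold limit: it fell to 0.98 without KC P+ replicate 1 or phod2 P+ replicate 2, to 0.99 without KC P- replicate 3 or phod2 P- replicate 3, and reached 1.1 without phod2 P- replicate 2. Without phod2 P- replicate 1 it stood at 1 and just missed the limit. The log2 difference of HSP70 between phod2 and KC was 0.52 in P- (SE 0.0622, edgeR adjusted p = 3.23e-05) and -0.50 in P+ (SE 0.0692, edgeR adjusted p = 9.07e-05), both under 2-fold. The constitutive cytosolic HSC70-1 stood at 0.62 in phod2 and 0.49 in KC between P- and P+, short of 2-fold.

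HSP90.1, the stress-inducible cytosolic HSP90, and ROF2 rose in P-. HSP90.1 was at 88.9, 55.1 and 91.2 CPM in phod2 P- and at 13.6, 14.5 and 13.4 in phod2 P+. The KC values were 55.5, 57.7 and 57.5 CPM in P- and 11.6, 8.72 and 10.1 in P+. The phod2 P- replicate 2 value lies just below all 3 KC P- values. HSP90.1 rose by a log2 change of 2.51 (SE 0.16, edgeR adjusted p = 5.21e-09) in phod2 and 2.48 (SE 0.164, edgeR adjusted p = 9.52e-09) in KC. The difference between phod2 and KC in P- was 0.46 (edgeR, adjusted p = 0.0342), under the 2-fold limit, and in P+ it was 0.44 (edgeR, adjusted p = 0.0741). ROF2 was at 34, 27.9 and 38.3 CPM in phod2 P- and at 7.81, 6.67 and 7.88 in phod2 P+. In KC the gene stood at 27.6, 29.4 and 27.4 CPM in P- and at 10.5, 8.94 and 10.2 in P+. The P- and P+ libraries did not overlap, while phod2 P- and KC P- did. Between phod2 and KC the log2 difference of ROF2 was 0.25 in P- (edgeR, adjusted p = 0.0992). In P+ it was -0.41 (SE 0.125, edgeR adjusted p = 0.024), short of 2-fold, with every phod2 library below every KC library. ROF2 rose by 2.17 (SE 0.116, edgeR adjusted p = 7.76e-10) in phod2 and 1.5 (SE 0.113, edgeR adjusted p = 3.56e-08) in KC. The difference between these changes was 0.66 (SE 0.162, edgeR adjusted p = 0.0162), short of 2-fold. Among their constitutive relatives HSP90.2 rose by 1.12 in phod2 and 1.1 in KC, and HSP90.3 by 1.49 in phod2 and 1.36 in KC. HSP90.4 stood at 0.57 in phod2 and 0.81 in KC and ROF1 at 0.78 in phod2 and 0.87 in KC, both short of 2-fold. The copies HSP90.2, HSP90.3 and HSP90.4 are near-identical in sequence, so their single-gene values are uncertain.

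BIP3 was the one member not called between phosphate conditions in either genotype, and it was higher in phod2 than in KC within P-. It was at 3.31, 1.56 and 3.53 CPM in phod2 P- (73, 25 and 63 counts) and at 1.72, 2.05 and 1.66 CPM in phod2 P+ (33, 42 and 37 counts). In KC it was at 0.477, 1.16 and 1.02 CPM in P- (9, 21 and 17 counts) and at 1.49, 1.36 and 1.70 CPM in P+ (35, 25 and 39 counts). The phod2 P- replicate 2 value lies below all 3 phod2 P+ values, the other 2 above them, and in KC every P- value lies below every P+ value. Its change was 0.65 in phod2 (edgeR, adjusted p = 0.0528, 0.96 without phod2 P- replicate 2) and -0.79 in KC (edgeR, adjusted p = 0.0658), where it was called at -1.05 without KC P- replicate 2. In P- it was 3.22-fold higher in phod2 than in KC (log2 1.69, SE 0.329, edgeR adjusted p = 0.00204; 0.68 and not called with limma on log2(FPKM + 1)), with every phod2 P- library above every KC P- library, while the log2 difference in P+ was 0.24 (edgeR, adjusted p = 0.606). The difference of its change between genotypes was 1.45 (SE 0.454, edgeR adjusted p = 0.0546), and it was called at 1.75 without phod2 P- replicate 2, at 1.44 with DESeq2 and at 1.49 with the length trend removed. The abundant lumenal forms BIP1 and BIP2 were set beside it: BIP2 had a log2 difference between phod2 and KC of -0.42 in P- (edgeR, adjusted p = 1.89e-05) and -0.49 in P+ (edgeR, adjusted p = 2.85e-06), both under 2-fold, while BIP1 stood at -0.21 in P- and -0.29 in P+. BIP1 and BIP2 are near-identical in sequence, so their single-gene values are uncertain. NAC103, a transcription factor of the unfolded protein response, was higher in phod2 by 1.96 in P- (edgeR, adjusted p = 3.02e-07) and by 1.90 in P+ (edgeR, adjusted p = 2.52e-06). It was the 1 called of the 22 other genes of endoplasmic reticulum folding in each condition, beside 2.23% of all tested genes called higher in P- and 1.98% in P+. Counting every fold size at the same adjusted p limit, 2 of the 22 were higher and 9 lower in phod2 in P-, and 2 higher and 10 lower in P+, with median log2 differences of -0.09 in P- and -0.25 in P+. No share of all genes was counted at every fold size, so these counts have no background of their own kind. As a different measure, not counted here for the 22, every phod2 library lay below every KC library for 18.7% of all tested genes in P-. In P+ that share was 24.3%.

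**Figure D4:**
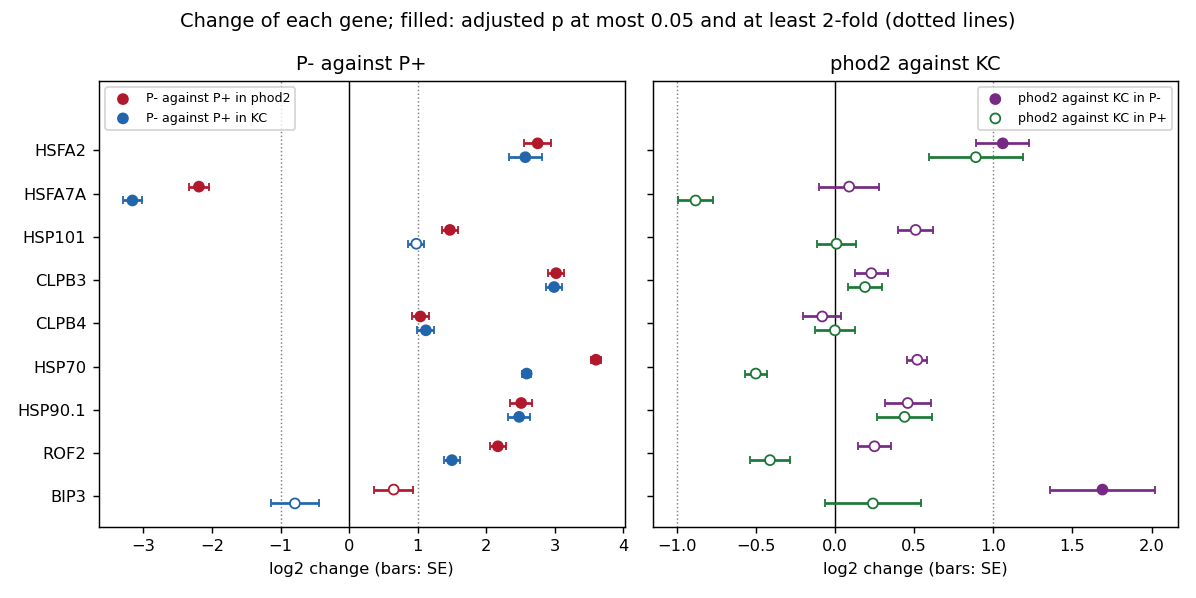
Log2 change with SE (horizontal axis) of the 9 genes (vertical axis), on the left P- against P+ in phod2 and in KC, on the right phod2 against KC in P- and in P+; filled points passed an adjusted p of 0.05 and 2-fold, and the dotted lines mark 2-fold. On the left 7 genes lie right of 0 in both genotypes, HSFA7A lies left of it, and the BIP3 points lie on opposite sides. On the right HSFA2 and BIP3 in P- are filled.

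Counted over all 9 members, 7 were called higher and 1 lower in P- against P+ in phod2, against 14.1% and 10.3% of the 20891 tested genes (edgeR's quasi-likelihood test, adjusted p of at most 0.05 and at least 2-fold). In KC 6 were called higher and 1 lower, against 10.9% and 9.6%. The members' median log2 change was 2.17 in phod2 and 1.5 in KC, and that of all genes 0.01 in each. The members were chosen with earlier results of these data known, so the shares only describe them and are no test of enrichment. In P- phod2 against KC gave 2 higher, against 2.23% higher and 2.46% lower of all genes. In P+ edgeR called 0 in either direction, against 1.98% higher and 5.42% lower of all genes, and DESeq2 and both limma settings also called 0. At an unadjusted p under 0.05, 2 members were higher and 3 lower there, and no share of all genes was counted at that limit. By libraries, 3 members lay wholly above and 3 wholly below in phod2 in P+, against 28.9% and 24.3% of all genes. Between the changes in phod2 and KC, HSP70 was the 1 member called, against 2.39% of genes with a larger and 0.685% with a smaller change in phod2. Of the members, 7 lay wholly above and 1 wholly below between P- and P+ in phod2, against 34.8% and 34.8% of all genes. In KC 7 lay above and 2 below, against 37.7% and 37.5%.

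Without phod2 P- replicate 2, the library that stood apart, the log2 change in P- against P+ in phod2 was 2.92 for HSFA2, -2.09 for HSFA7A, 1.65 for HSP101, 3.21 for CLPB3, 1.24 for CLPB4, 3.68 for HSP70, 2.74 for HSP90.1, 2.31 for ROF2 and 0.96 for BIP3. The same 7 members were called higher and HSFA7A lower. For phod2 against KC in P- the values without that library were 1.21 for HSFA2, 0.16 for HSFA7A, 0.66 for HSP101, 0.39 for CLPB3, 0.1 for CLPB4, 0.57 for HSP70, 0.68 for HSP90.1, 0.37 for ROF2 and 1.97 for BIP3. CLPB4 thereby changed sign and HSFA2 and BIP3 were still called.

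The order of the members' levels per length was the same at the top in the P- groups. In phod2 P- it ran CLPB3 (147 ± 33.2 FPKM), HSP70 (85.8 ± 7.63), HSP90.1 (36.6 ± 10.7), ROF2 (14.8 ± 2.86), CLPB4 (11.9 ± 2.93), HSP101 (9.52 ± 2.1), HSFA2 (4.13 ± 0.908), HSFA7A (2.01 ± 0.339) and BIP3 (1.3 ± 0.537), each as mean and SD over 3 libraries. The neighbours ROF2 and CLPB4, and CLPB4 and HSP101, overlap within their SDs, as do HSFA7A and BIP3. In phod2 P+ CLPB3 led at 18.8 ± 0.415 FPKM, before HSFA7A at 9.56 ± 0.314, HSP70 at 7.36 ± 0.35 and HSP90.1 at 6.71 ± 0.257. In KC P- the first 3 places were as in phod2 P-, with HSP70 at 61 ± 2.09 FPKM and HSP90.1 at 26.9 ± 0.646. In KC P+ HSFA7A (17.5 ± 0.752 FPKM) and CLPB3 (16.2 ± 0.943) stood at the top and overlap within their SDs. HSP70 followed at 10.3 ± 0.526 FPKM in KC P+. HSFA2 was lowest of the 9 in both P+ groups, at 0.64 ± 0.0265 FPKM in phod2 P+ and 0.34 ± 0.0964 FPKM in KC P+.

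Over the 12 libraries the 7 members that were higher in P- correlated with each other at Pearson r of log2 CPM between 0.899 and 0.993. HSFA7A correlated with them at -0.966 to -0.896, and BIP3 at -0.0522 to 0.175. These values describe 12 libraries that share 4 groups. The genes most like each member over the 12 libraries were ANAC13, BAM5 and SBT1.7 for HSFA2 (r = 0.991 for ANAC13), and PMI1, GATL6 and PHO1-H8 for HSFA7A (0.995 for PMI1). For HSP101 they were PFK7, KUP11 and IIL1 (0.992 for PFK7), for CLPB3 P5CSA, TIC55 and AT5G58620 (0.999 for P5CSA), and for CLPB4 SS2, AT5G58930 and NIFS1 (0.994 for SS2). For HSP70 they were CYP84A1, CSLG3 and ATTLL1 (0.999 for CYP84A1), for HSP90.1 ISA2, ABCC10 and TPS5 (0.996 for ISA2), for ROF2 SNZ, PAO4 and CYP84A1 (0.996 for SNZ), and for BIP3 AT4G28260, LOX2 and AT3G57780 (0.897 for AT4G28260).

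Other HSF genes were called in both directions. Of 19 other HSF genes 17 were tested, and 5 were higher and 3 lower in P- in phod2, beside 14.1% higher and 10.3% lower of all tested genes. In KC 3 were higher and 3 lower, beside 10.9% and 9.6%. With limma on log2(FPKM + 1) the calls in phod2 numbered 5. HSFA6A rose to 7.21 ± 1.14 CPM in phod2 P- against 0.238 ± 0.121 in phod2 P+ (log2 4.87). In KC P- it had 279 counts and in KC P+ 2, a ratio of 169 with a counting interval of 46.2 to 1.4e+03. HSFB2A rose by 2.07 in phod2 and 1.97 in KC, and HSFB2B by 1.34 and 1.05, both class B factors. HSFA3 fell by 2.49 in phod2 and 2.44 in KC, and HSFA8 fell by 1.80 and 1.79. HSFA6B fell by 2.84 in phod2 and 1.61 in KC, and was lower in phod2 than in KC in P-, at -1.89. The master regulators HSFA1A, HSFA1B, HSFA1D and HSFA1E stood between -0.60 and -0.29 in phod2 and between -0.73 and -0.20 in KC, none past 2-fold. HSFB1, the most abundant HSF per length, was at 1.08 in phod2 and called higher, and at 0.73 in KC and not called.

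**Figure D5:**
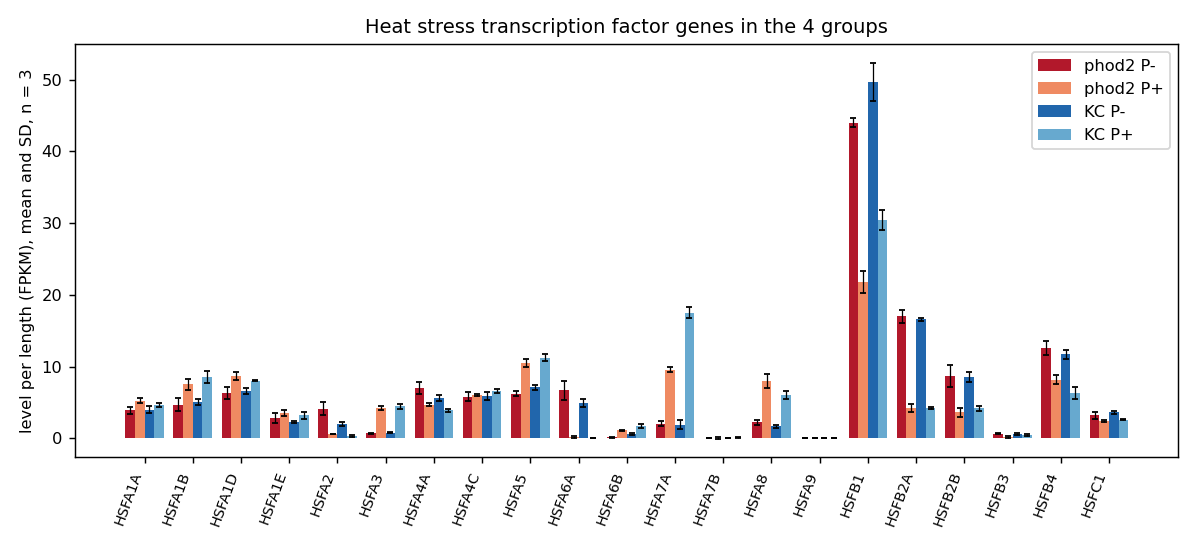
Level per length in FPKM (vertical axis, from 0) of the HSF genes (horizontal axis) as mean and SD over 3 libraries in the 4 groups. HSFB1 is highest in all groups, at 44.0 in phod2 P- and 30.4 in KC P+, and HSFA7A stands at 2.01 in phod2 P- and 17.5 in KC P+.

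Some genes of other chaperone families rose, and their counts stand beside 14.1% called higher and 10.3% lower of all tested genes in P- in phod2. In KC those shares were 10.9% and 9.6%. In the HSP70 family 15 of 16 genes were tested, with 4 higher in P- in phod2 and 3 in KC, led by HSC70-3 (1.85 and 1.60) and HSC70-2 (1.73 and 1.43), cytosolic forms, and mtHSC70-2 (1.58 and 1.43), a mitochondrial form. In the HSP90 family 2 of 6 were higher in both genotypes, and 4 in KC with the length trend removed. Counting every fold size at the same adjusted p limit, all 6 were higher in both genotypes. In the HSP70 family that count was 12 higher and 2 lower of 15 in phod2, and 12 and 1 in KC. No share of all genes was counted that way. Among the other CLP ATPases, CLPC1 stood at -0.03 in phod2 and 0.11 in KC, CLPC2 at -0.27 and 0.41, and CLPD at -0.82 and -0.77, and CLPB2 had 0 counts in all libraries. Of 8 organelle chaperonins CPN10, the mitochondrial co-chaperonin, was the 1 called higher, by 1.20 in phod2 and 1.03 in KC. At the 2-fold limit that count is near the share of all tested genes (14.1% in phod2 and 10.9% in KC). In KC CPN10 was not called with the length trend removed or with limma on log2(FPKM + 1). At every fold size 6 of the 8 chaperonins were higher and 1 lower in phod2, and 8 and 0 in KC. Their median log2 change was 0.42 in phod2 and 0.68 in KC, against 0.01 for all genes in each. Of 14 tested co-chaperone and heat stress genes 6 were higher and 1 lower in P- in each genotype, among them GOLS1, a galactinol synthase (2.60 and 2.03), MBF1C, a transcriptional coactivator of heat tolerance (1.77 and 1.02), and the co-chaperones HOP3 (1.68 and 1.39) and FES1A (1.40 and 1.29). Calls of that list in KC numbered 4 with limma on log2(FPKM + 1). DREB2A, a transcription factor of drought and heat responses, fell by 1.31 in phod2 and 1.81 in KC. GOLS1 was lower in phod2 than in KC in P+, at -1.57 (edgeR, adjusted p = 5.77e-08), and in P- it stood at the 2-fold limit without passing it (28.3 ± 1.89 CPM in phod2 P- and 56.5 ± 1.05 CPM in KC P-, SD, n = 3 each; edgeR, adjusted p = 7.78e-07).

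Of 22 genes of endoplasmic reticulum folding, 4 were higher and 1 lower in P- in phod2, and 2 higher and 1 lower in KC. At the 2-fold limit these counts are near the shares of all tested genes (14.1% higher and 10.3% lower in phod2, 10.9% and 9.6% in KC). With limma on log2(FPKM + 1), 0 were called in KC. Counting every fold size at the same adjusted p limit, 17 of the 22 were higher and 2 lower in phod2, and 16 and 3 in KC. No share of all genes was counted that way. The list's median log2 change was 0.32 in phod2 and 0.44 in KC, against 0.01 for all genes in each. ERDJ3A, a J-domain partner of BiP, rose by 1.47 in phod2 and stood at 0.95 in KC. TIN1 rose by 2.03 in phod2 and 1.22 in KC, and IRE1A, a sensor of unfolded protein, fell by 1.19 and 1.05. Small heat shock proteins, which bind unfolding proteins, were the list with most calls: 13 of 13 tested were higher in P- in phod2 and 12 of 13 in KC, with medians of 3.11 and 2.39. With limma on log2(FPKM + 1), which compresses changes of low genes, 3 were called in KC. In P- 9 of these 13 were also higher in phod2 than in KC, beside 2.23% of all tested genes. Among them HSP21 had 49 counts in phod2 P- and 2 in KC P- (ratio 23.5, counting interval 6.16 to 199). HSP17.6A had 433 counts over the 3 phod2 P- libraries and 3 over phod2 P+, and 52 over KC P- and 6 over KC P+. HSP17.6II had 328 counts over phod2 P- and 4 over phod2 P+, and 44 over KC P- and 0 over KC P+. HSP26.5 was the 1 small heat shock protein gene named here that was lower in phod2 than in KC in P+, at -1.87 (edgeR, adjusted p = 6.7e-05). HSP17.8 was at 15.6 CPM in phod2 P- and 1.01 in phod2 P+, and at 5.21 in KC P- and 0.847 in KC P+, and its change differed between the genotypes by 1.30 (SE 0.36, edgeR adjusted p = 0.0305), a call lost without phod2 P+ replicate 2. Across the 8 lists, 35 genes were higher and 5 lower of 95 tested in phod2 P- against P+, and 29 and 5 in KC.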

How the data were processed

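Whole-seedling RNA was sequenced in 12 libraries, with 1.3 µg of total RNA going into each library after column extraction, per the labels' protocols. A single table deposited by the authors holds unnormalized read counts of each gene beside FPKM values, per the file headers. For the aligner, the counter and strand use, nothing was given in the sources used here. The submitters' processing notes name the mouse build mm10, whereas 32548 of 32833 identifiers matched a RefSeq locus of Arabidopsis TAIR10.1, with identical gene boundaries for 99.95%. The deposited FPKM values were within 0.006 of values recomputed from counts, exonic lengths and library totals for 100% of entries.

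Counts were scaled with TMM factors and genes of low count removed (filterByExpr, smallest count 10). A single edgeR quasi-likelihood model of 4 group means over 12 libraries was fitted to 20891 genes, with Benjamini-Hochberg adjustment over all of them. Called means an adjusted p of at most 0.05 and at least 2-fold, the limits of the series' design text. Intervals of log2 differences are 95% and use the fitted SE with the residual degrees of freedom of 12 libraries in 4 groups. The edgeR tests use moderated degrees of freedom, so these intervals can be wider than the tests imply. Counting intervals are 95% and cover counting error only. The floor of 3 counts over a group is 0.0536 CPM in phod2 P-, 0.0483 in phod2 P+, 0.056 in KC P- and 0.0463 in KC P+. Fits were run in R 4.3.3 (edgeR 4.0.16), with DESeq2 1.42.0 and limma 3.58.1 for alternatives.

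Alternatives were DESeq2, no filter, a fit of each pair of groups alone, a replicate block, removal of the length trend, limma on log2(FPKM + 1) and log2(FPKM + 0.1), and leaving out each library. The members and gene lists were chosen with earlier results of these data known. The rule for named genes took the 9 members, the up to 4 called genes of each list with the largest change in each comparison (most of which are named), a fixed set of relatives, the 3 genes most like each member, the clock genes CCA1 and COR27, and LIP1P. Windows of 300 bases before the annotated gene starts were read from the TAIR10.1 genome. HSFB2B, CLPC1, CLPC2, CLPD and the marker genes given as sums or at 0 counts are named outside this rule, chosen after their values were seen.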

Additional observations from a re-analysis of the deposited data

Results flagged for a closer look

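The change of HSP70 with phosphate was larger in phod2 than in KC, with a difference of 1.01 on the log2 scale (edgeR, adjusted p = 9.28e-06), and its libraries stood above KC in P- and below KC in P+. The change of HSP17.8 was larger in phod2 than in KC by 1.3 (edgeR, adjusted p = 0.0305). That of HSP17.6C was larger by 2.97 (edgeR, adjusted p = 0.0191), with 54, 59 and 48 counts in phod2 P- and 2, 1 and 1 counts in phod2 P+. In KC the gene had 45 counts over the 3 P- libraries and 10 over the 3 P+ libraries. The value thus rests on few counts in both P+ groups. Both small heat shock protein genes belong to a family of similar sequences, so their single-gene values are uncertain. Genes of that list called for this difference numbered 0 without phod2 P+ replicate 2, 1 without KC P- replicate 1 or 3, KC P+ replicate 1 or phod2 P+ replicate 1 or 3, and 6 and 7 in the limma fits.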

How the results depend on the processing

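Every member kept its direction between P- and P+ under the 19 alternatives, and near-zero differences changed sign. With limma on log2(FPKM + 1), genes called over the whole table were 1726 higher in phod2 P- against P+, 1324 higher in KC, 238 higher and 194 lower for phod2 against KC in P-, 136 higher and 491 lower in P+, and 287 larger and 66 smaller for the difference of changes. Under it list genes called were 16 in KC P- against P+ and 6 for the difference of changes, which was 7 with log2(FPKM + 0.1). Members called higher for phod2 against KC in P- were 0 with log2(FPKM + 1) and 1 with log2(FPKM + 0.1). Members called for the difference of changes were 2 with DESeq2 and with the length trend removed, and 0 without a filter and in both limma fits. List genes called for phod2 against KC in P+ were 7 with the length trend removed.

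The log2 difference of CLPB4 was 0.08 in P- and that of its changes 0.11 with the length trend removed. Its difference in P+ was 0 with DESeq2, 0.02 without a filter and 0.01 in both limma fits. HSP101 in P+ was -0.02 with the length trend removed and in the pairwise fit. For the difference of changes CLPB3 was -0.02 and -0.03 and HSP90.1 -0.01 and -0.07 in the limma fits, and HSP90.1 was 0 without a filter. The cause of these shifts was not tested. HSP70 stood at 0.99 without a filter and 0.91 to 0.96 in the limma fits, and HSFA2 for phod2 against KC in P- at 0.76 to 0.99 in the limma fits.

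The replicate numbers did not pair the libraries: same-numbered libraries correlated at -0.0627 to 0.0619, and 4 of 12 correlated best with their own number. With the replicate block CLPB4 in P+ was 0 and the HSP90.1 difference of changes -0.01, and members called were 7 higher and 1 lower in phod2, 6 and 1 in KC.

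Leaving out 1 library at a time, members called for the difference of changes were 0 to 3, higher in phod2 in P- 1 to 2, higher in phod2 in P+ 0 to 1, and lower in KC P- against P+ 1 to 2. List genes called were 0 to 3 for the difference of changes and 3 to 7 for phod2 against KC in P+. For the difference of changes CLPB3 ranged over -0.04 to 0.23, CLPB4 -0.18 to 0.12, HSFA2 0 to 0.4 and HSP90.1 -0.1 to 0.27. For phod2 against KC, CLPB4 ranged over -0.18 to 0.1 in P- and -0.05 to 0.05 in P+, HSFA7A -0.04 to 0.36 in P-, and HSP101 -0.01 to 0.05 in P+. Depth limits BIP3, with 9 to 73 counts per library. It also limits HSFA2 in P+, with 18, 13 and 10 counts in KC P+ and 23, 23 and 27 in phod2 P+.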
